A study of Homo sapiens with 15 samples.

Results

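The 10 genes described here belong to the YAP-TEAD branch of the Hippo pathway and were taken by gene symbol, each mapped to 1 of the 61552 Ensembl gene IDs of the counts table. They are the effectors YAP1 and TEAD1, the regulators LATS2, AJUBA and AMOTL2, and the target genes CCN1, CCN2, ANKRD1, AXL and CRIM1. RNA came from MDA-MB-468, an established epithelial breast cancer cell line with high EGFR, in 15 libraries of poly(A) RNA, 3 in each of 5 groups. In the drug experiment, cells were serum starved for 12 h and received 10 ng/mL EGF alone (EGF), with 10 μM of the peptide cSNX1.3, which keeps EGFR from binding Sorting Nexin 1, or with 15 μM erlotinib, an inhibitor of the EGFR tyrosine kinase, for 12 h. In the line experiment, endogenous EGFR was knocked down with a lentiviral shRNA induced by 1 mM IPTG for 2 days, and the cells stayed in IPTG thereafter. EGFR-GFP was then introduced as wildtype (WT) or with a mutated nuclear localization signal (ΔNLS), and EGF was given. The labels do not say whether a line is 1 clone. An effect of the ΔNLS mutation thus cannot be told apart from another difference between the WT and ΔNLS lines. The 15 libraries include no cells without EGF, no control peptide and no cells of the line experiment that were not transduced. An effect of cSNX1.3 thus cannot be told apart from an effect of adding a peptide. A difference between a line and a drug group cannot be told apart from a difference between the experiments.

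YAP1 is a transcriptional coactivator that has no DNA-binding domain of its own and reaches its target genes through TEAD factors. When the Hippo kinases are active, LATS1 and LATS2 phosphorylate YAP1, which is then held in the cytoplasm and degraded. Growth factor receptors, cell density and the actin cytoskeleton are known inputs to this pathway, and CCN1, CCN2 and ANKRD1 are its usual readouts. The libraries measure RNA, so the location and phosphorylation of the YAP1 protein were not measured.

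TEAD factors bind the hexamer GGAATG, and the promoters of CCN2 and ANKRD1 are shown because they hold the most copies among the 7 genes with a promoter window and because these 2 genes had different patterns over the groups. Both are RefSeq sequences of GRCh38.p14, 250 bases that end just before the transcription start, 5′ to 3′ on the strand of the gene. Capitals mark GGAATG and, in ANKRD1, the AP-1 motif TGATTCA. The CCN2 stretch lies at chr6:131951373-131951622 and the ANKRD1 stretch at chr10:90921088-90921337, both on the minus strand.

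CCN2: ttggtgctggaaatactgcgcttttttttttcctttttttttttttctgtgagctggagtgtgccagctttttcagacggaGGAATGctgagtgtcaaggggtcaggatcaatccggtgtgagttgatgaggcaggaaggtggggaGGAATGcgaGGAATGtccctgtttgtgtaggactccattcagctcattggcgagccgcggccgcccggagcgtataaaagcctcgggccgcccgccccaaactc

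ANKRD1: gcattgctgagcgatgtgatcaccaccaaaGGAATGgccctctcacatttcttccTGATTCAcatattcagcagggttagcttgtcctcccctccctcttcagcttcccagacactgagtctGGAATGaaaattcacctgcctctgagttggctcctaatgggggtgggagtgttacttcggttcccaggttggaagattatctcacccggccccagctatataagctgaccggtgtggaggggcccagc

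CCN2 held GGAATG 3 times, with the first base at positions -169, -104 and -95, where -1 is the base before the transcription start. ANKRD1 held it 2 times, at positions -220 and -128, with TGATTCA at -195. In RefSeq windows of 300 bases (250 before and 50 after each start), GGAATG or its reverse complement CATTCC was found in 14.0% of 35116 windows, at least 2 times in 1.37% and at least 3 times in 0.128%. The AP-1 motif TGANTCA, which reads the same way on both strands, was found in 7.71%. The 2 motifs share no matched base in these windows. Windows were matched for 7 of the 10 genes, 10 windows in all, of which 7 held a TEAD motif and 1 an AP-1 motif. YAP1, LATS2 and the second windows of AMOTL2, AXL and AJUBA held 1 TEAD motif each, and the first windows of AMOTL2, AXL and AJUBA held none. TEAD1, CCN1 and CRIM1 had no window. A match describes these letters only and shows no binding.

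Library totals ranged from 22915676 to 35900649 counts, and every pair of replicates differed by more than the sampling noise (chi-square per degree of freedom from 2.69 to 24.5). Replicates 1 and 3 were closest in EGF (3.58, against 18.8 and 24.4 with replicate 2) and in WT (2.69, against 15.8 and 19.2). With cSNX1.3, replicates 2 and 3 were closest (5.86, against 15.55 and 22.5 with replicate 1). The pairs ran from 12.35 to 24.5 with erlotinib and from 4.715 to 12.1 in ΔNLS. The labels do not say that the replicates came from separate cultures, so p-values measure the spread between these libraries, which may be technical. EGFR was at 4367 to 4981 CPM (counts scaled to a common library size by TMM over all 15 libraries) with EGF, 5673 to 6566 with cSNX1.3 and 4523 to 4974 with erlotinib. In the lines EGFR was at 1149 to 1461 CPM in WT and 1682 to 1745 in ΔNLS, below every drug library, and the reads of the introduced EGFR and of what was left of the endogenous EGFR cannot be told apart. The 5 epithelial markers tested were present in all 15 libraries (EPCAM at 331 to 482 CPM). Among markers of other cell types, PTPRC, CD3E, VWF and PDGFRB stayed below 1 CPM in every library, whereas PECAM1 reached 5.87 CPM and COL1A1 ranged from 8.22 to 21.2 CPM. In bulk RNA, a smaller number of cells of 1 kind and less RNA per cell cannot be told apart.

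All 10 genes passed the filter on low counts in every comparison. On a scale of CPM per kilobase of annotated exon, which allows levels of different genes to be compared, the mean level with EGF alone was highest for AMOTL2 (37.9 ± 2.52, SD, n = 3) and YAP1 (26.5 ± 1.88). CRIM1 (16.3 ± 0.865) and CCN1 (15.4 ± 0.532) followed. AJUBA stood at 9.21, TEAD1 at 6.80, CCN2 at 5.76, LATS2 at 3.95, ANKRD1 at 2.38 and AXL at 0.520 CPM per kilobase. AXL and ANKRD1 were thus measured with few reads. AXL had 19 to 36 counts per erlotinib library and 64 to 77 per EGF library, and ANKRD1 had 27 to 57 and 97 to 117. Over the 5 groups the highest group mean exceeded the lowest 5.32-fold for AXL, 3.16-fold for ANKRD1, 3.01-fold for CCN2 and 2.35-fold for AMOTL2. The other 6 genes ranged over 1.27-fold (TEAD1) to 1.91-fold (AJUBA).

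**Figure D1:**
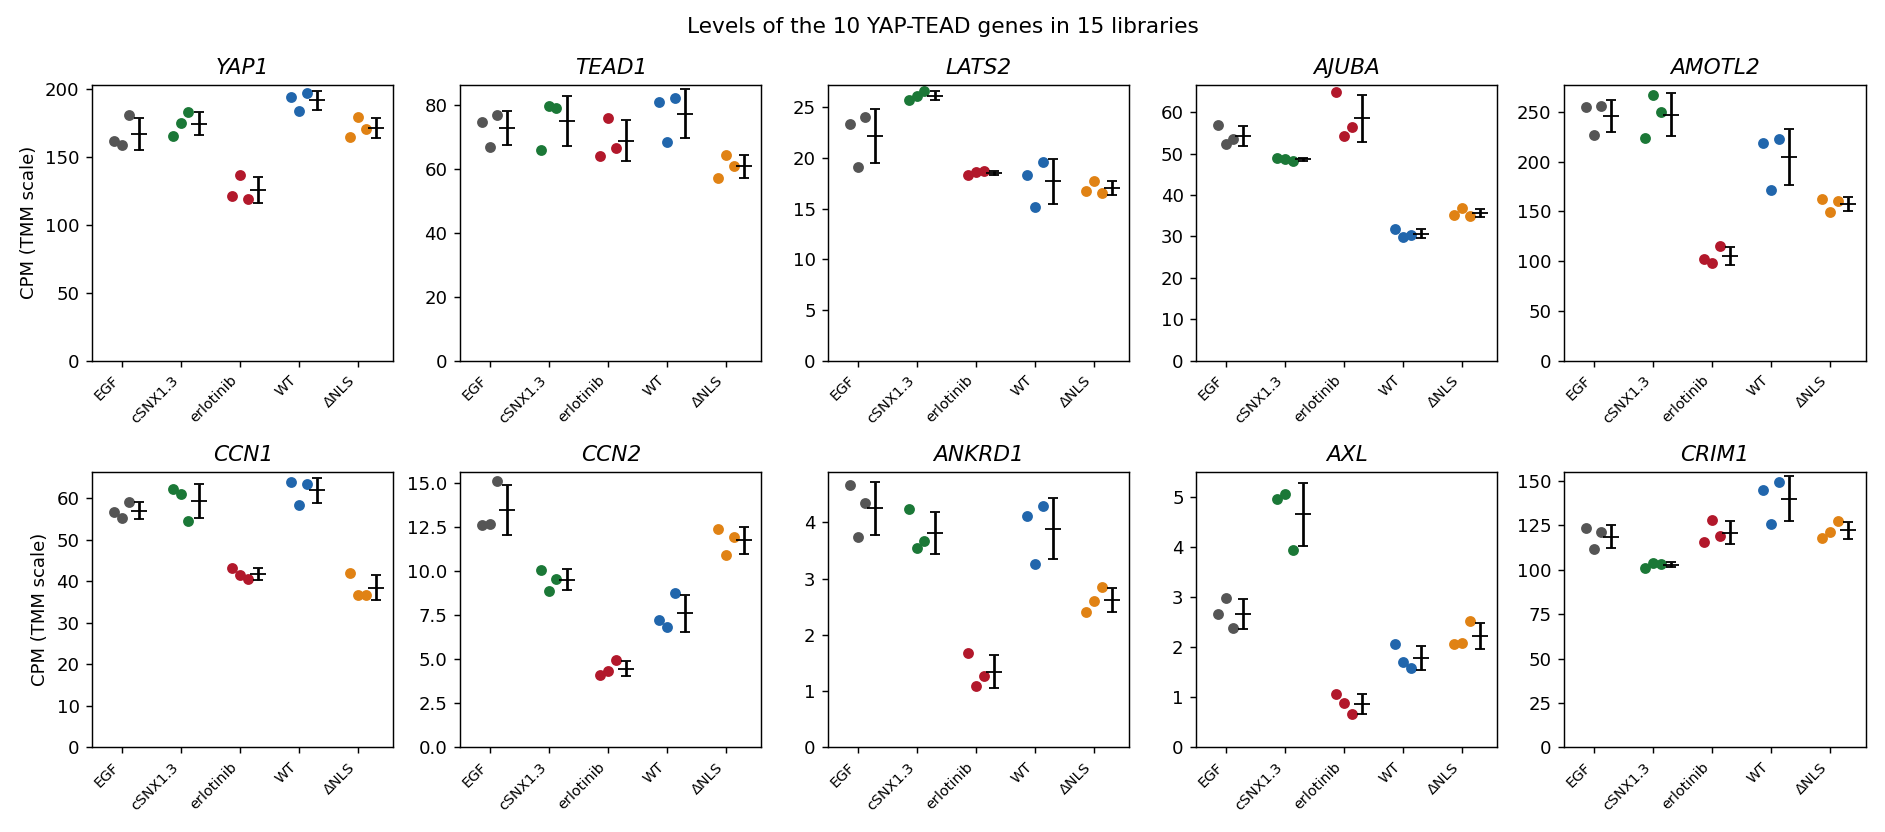
Levels of the 10 YAP-TEAD genes by group, 1 panel per gene with its own axis from 0, in CPM on the TMM scale. Each point is 1 library and the bars are the mean ± SD (n = 3). CCN2, ANKRD1, AMOTL2 and AXL have their 3 erlotinib libraries below all others, and CCN2 in ΔNLS (10.9 to 12.4 CPM) lies above WT (6.82 to 8.78 CPM).

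The erlotinib comparison asks how the EGFR kinase inhibitor altered the levels of these genes in cells given EGF. Relative to EGF alone, CCN2, ANKRD1, AXL and AMOTL2 fell to between a ratio of means of 0.317 and 0.428, and YAP1 and CCN1 fell to 0.752 and 0.732. Of the 10 genes, 6 were called at a Benjamini-Hochberg adjusted p under 0.05 in edgeR's quasi-likelihood test, all 6 of them lower. Over all 15738 genes tested, 44.0% were called and 21.2% were called and lower, so calls were common in that contrast. The median log2 fold change was -0.41 over the 10 genes and 0.01 over all genes tested.

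YAP1 stood at 162, 159 and 181 CPM in the EGF libraries and at 122, 137 and 119 CPM in the erlotinib libraries. The groups did not overlap, and the log2 fold change was -0.39 (standard error, SE, 0.09, adjusted p = 0.00283 by edgeR with Benjamini-Hochberg). TEAD1, the TEAD factor among the members, was at 74.7, 66.6 and 76.9 CPM with EGF and at 63.8, 75.9 and 66.5 CPM with erlotinib. These groups overlapped and TEAD1 was not called (-0.06 ± 0.10 on the log2 scale, standard error).

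Of the regulators, AMOTL2 moved most. It encodes an angiomotin-family scaffold that binds YAP1 and is itself a target gene of YAP-TEAD. AMOTL2 stood at 254, 227 and 256 CPM with EGF and at 102, 98.5 and 115 CPM with erlotinib, without overlap. Its log2 fold change was -1.20 (SE 0.10, adjusted p = 1.25e-07 by edgeR with Benjamini-Hochberg). LATS2, the kinase that phosphorylates YAP1, was at 23.3, 19.1 and 24.0 CPM with EGF and at 18.3, 18.6 and 18.7 CPM with erlotinib. All 3 LATS2 values with erlotinib were the lower ones, but LATS2 was not called (-0.24 ± 0.11, adjusted p = 0.0885 by edgeR with Benjamini-Hochberg). Without EGF replicate 2 it was called, with an adjusted p of 0.0141 in the same edgeR test. AJUBA encodes a LIM-domain protein that binds LATS kinases and limits their activity. AJUBA ranged from 52.3 to 56.9 CPM with EGF and from 54.2 to 64.8 CPM with erlotinib and was not called (0.13 ± 0.09).

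Among the targets, CCN2 and CCN1 encode secreted matricellular proteins, and ANKRD1 encodes an ankyrin-repeat protein. CCN2 stood at 12.7, 12.7 and 15.1 CPM with EGF and at 4.14, 4.36 and 4.95 CPM with erlotinib. The log2 fold change of CCN2 was -1.57 (SE 0.14, adjusted p = 2.12e-07 by edgeR with Benjamini-Hochberg). ANKRD1 stood at 4.67, 3.75 and 4.34 CPM with EGF and at 1.67, 1.10 and 1.26 CPM with erlotinib, a log2 fold change of -1.62 (SE 0.20). Neither gene's groups overlapped. AXL, a receptor tyrosine kinase, fell from 2.66, 2.97 and 2.38 CPM to 1.06, 0.897 and 0.667 CPM, a log2 fold change of -1.57 (SE 0.23). In absolute size, the changes of CCN2, ANKRD1 and AXL exceeded those of more than 95% of the genes tested, at the 95.3, 95.6 and 95.3 percentiles. CCN1 fell less, from 56.8, 55.2 and 59.1 CPM to 43.3, 41.5 and 40.5 CPM (-0.43 ± 0.09), at the 59.2 percentile. CRIM1, a transmembrane protein with cysteine-rich repeats, was at 112 to 124 CPM with EGF and at 116 to 128 CPM with erlotinib and was not called (0.05 ± 0.08). The epithelial markers did not move as 1 group with erlotinib. The keratins KRT8, KRT18 and KRT19 were lower than with EGF without overlap, CDH1 was higher without overlap, and EPCAM overlapped. KRT8 was at 2450.2 to 2719 CPM against 5381 to 7170.1 with EGF, and CDH1 at 123 to 132 CPM against 91.4 to 98.5. The summed level of the 5 markers was 7147 to 8455 CPM with erlotinib and 11980 to 15770 with EGF. Of the 6 markers of other cell types, COL1A1 was lower (11.0 to 14.7 CPM against 16.0 to 18.6), VWF was higher (0.526 to 0.852 CPM against 0.0371 to 0.232) and 4 overlapped. Their summed level was 12.85 to 17.0 CPM with erlotinib and 17.6 to 19.98 with EGF. The part of these markers in the members' changes was not tested.

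**Figure D2:**
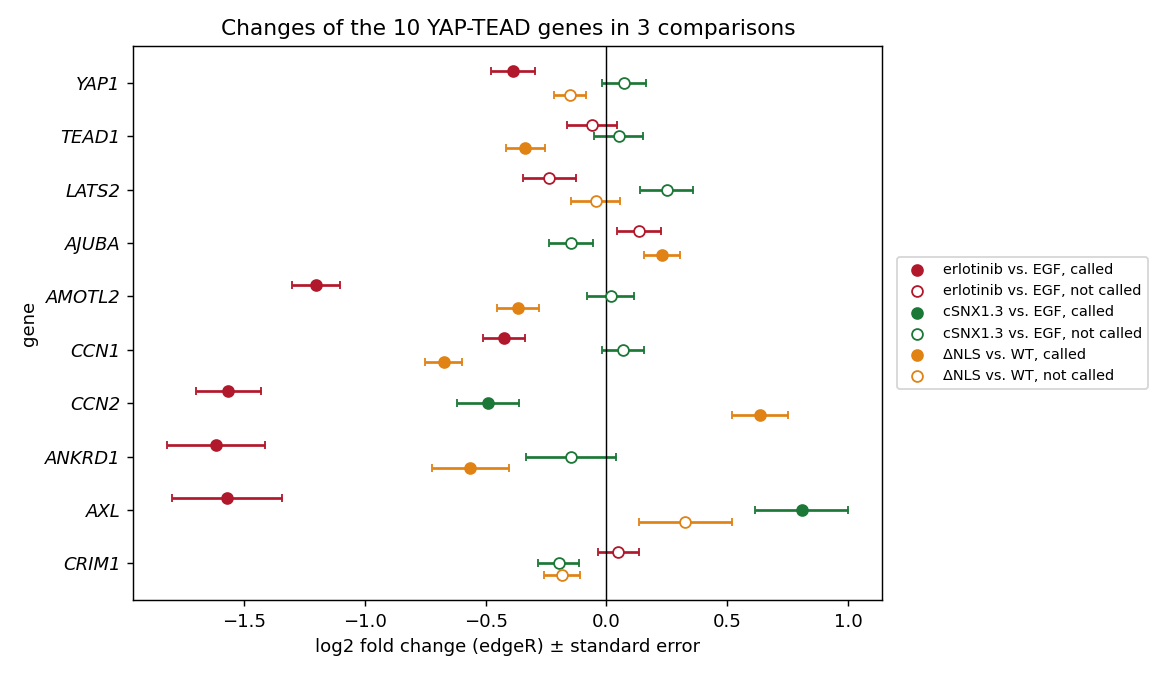
Log2 fold change of each of the 10 genes in 3 comparisons, as fitted by edgeR, with a standard error derived from its test statistic. Filled points were called at an adjusted p under 0.05, and open points were not. Erlotinib lowered 6 genes, cSNX1.3 changed CCN2 and AXL in opposite directions, and ΔNLS vs. WT gave 4 falls and 2 rises.

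The peptide comparison asks how the same genes moved with cSNX1.3, which targets the binding of EGFR to Sorting Nexin 1 and not the kinase. Relative to EGF alone, cSNX1.3 lowered CCN2 to a ratio of means of 0.707 and raised AXL to 1.74, and the other 8 genes were not called. A count of 2 called genes among 10 stands against 6.07% of all 15738 genes tested. The median log2 fold change of the 10 genes was 0.03, against 0.00 over all genes. The 3 EGF libraries are the controls of both drug comparisons, so their values are given side by side and no overlap between them is read.

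CCN2 was at 10.1, 8.89 and 9.58 CPM with cSNX1.3, below each of the EGF values of 12.7, 12.7 and 15.1 CPM. Its log2 fold change was -0.49 (SE 0.13, adjusted p = 0.0318 by edgeR with Benjamini-Hochberg). AXL was at 4.96, 5.06 and 3.93 CPM, above each of the EGF values of 2.66, 2.97 and 2.38 CPM, with a log2 fold change of 0.81 (SE 0.19, adjusted p = 0.0185 by edgeR with Benjamini-Hochberg). Both calls were lost without EGF replicate 1 (adjusted p = 0.0726 for CCN2 and 0.0719 for AXL), EGF replicate 3 (0.18 and 0.094) or cSNX1.3 replicate 2 (0.149 and 0.0989), all in edgeR's test. The call of CCN2 was also lost without cSNX1.3 replicate 3 (0.0857).

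YAP1 was at 166, 175 and 183 CPM with cSNX1.3 and its range overlapped that with EGF (0.07 ± 0.09 on the log2 scale). TEAD1 (0.05 ± 0.10), CCN1 (0.07 ± 0.09), AMOTL2 (0.02 ± 0.10) and ANKRD1 (-0.15 ± 0.19) also overlapped with EGF. CCN1 was at 62.3, 60.9 and 54.6 CPM and AMOTL2 at 224, 267 and 250 CPM with the peptide. LATS2, at 25.7, 26.1 and 26.6 CPM, lay above every EGF library, but the difference of 0.25 ± 0.11 was not called (adjusted p = 0.209 by edgeR with Benjamini-Hochberg). AJUBA (49.0, 48.6 and 48.2 CPM) and CRIM1 (101, 104 and 103 CPM) lay below every EGF library and were not called (-0.15 ± 0.09 and -0.20 ± 0.08). Among the 5 epithelial markers KRT18 was higher with cSNX1.3 than with EGF (2132 to 2790 CPM against 1433 to 1958.5), CDH1 was lower (81.0 to 90.8 against 91.4 to 98.5) and 3 overlapped, for a summed level of 13640 to 17520 against 11980 to 15770 CPM. Of the 6 markers of other cell types, COL1A1 (19.8 to 21.2 CPM against 16.0 to 18.6) and PECAM1 (1.68 to 1.99 against 0.817 to 1.39) were higher and 4 overlapped, for a summed level of 22.0 to 23.45 against 17.6 to 19.98 CPM. Their part in the changes of CCN2 and AXL was not tested.

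A direct contrast of the 2 drugs tests whether their effects on a gene differed. Of the 10 genes, 9 were called between cSNX1.3 and erlotinib, where 56.1% of all genes tested were called. Among them 7 were higher with cSNX1.3, a direction in which 27.6% of all genes were called. AXL had the largest difference of the 10, a log2 fold change of 2.38 (SE 0.22, adjusted p = 1.87e-07 by edgeR with Benjamini-Hochberg). ANKRD1 (1.47 ± 0.21), AMOTL2 (1.22 ± 0.10) and CCN2 (1.08 ± 0.14) followed, and CCN1 (0.49), LATS2 (0.49) and YAP1 (0.46) differed less. CRIM1 (-0.25) and AJUBA (-0.28) were lower with cSNX1.3, and TEAD1 was the gene not called (0.11 ± 0.10). The call of CRIM1 was lost without cSNX1.3 replicate 2 or 3 or erlotinib replicate 2 (edgeR adjusted p = 0.0579, 0.0541 and 0.0644), and that of AJUBA without erlotinib replicate 1 (0.0692). The call of CRIM1 was also lost with no filter on low counts (0.0533).

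The line comparison sets the line given EGFR with the mutated nuclear localization signal against the line given wildtype EGFR. Relative to WT, the ΔNLS libraries had less CCN1, ANKRD1, AMOTL2 and TEAD1 and more CCN2 and AJUBA. Those 6 genes of 10 were called, where 41.4% of 15805 genes tested were called. The 4 that fell stand against 21.0% of all genes called and lower. The median log2 fold change was -0.17 over the 10 genes and 0.01 over all genes. EGFR RNA, at 1346 ± 171 CPM in WT and 1722 ± 35.0 CPM in ΔNLS, was higher in ΔNLS (log2 fold change 0.37, adjusted p = 0.00367 by edgeR with Benjamini-Hochberg), and its part in these changes was not tested. Of the epithelial markers, KRT8 (4505 to 5662 CPM in ΔNLS against 7975 to 9226 in WT), KRT18, KRT19 and CDH1 were lower in ΔNLS without overlap, and EPCAM overlapped. Their summed level was 9537 to 11650 CPM in ΔNLS and 15990 to 18340 in WT. COL1A1 was lower in ΔNLS (8.22 to 10.34 CPM against 10.37 to 12.8), and the 5 other markers of other cell types overlapped, for a summed level of 14.4 to 16.1 against 17.2 to 17.9 CPM. The part of these markers was not tested either.

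TEAD1 stood at 80.8, 68.4 and 82.2 CPM in WT and at 57.0, 64.2 and 60.8 CPM in ΔNLS. These groups did not overlap, and the log2 fold change was -0.34 (SE 0.08, adjusted p = 0.00323 by edgeR with Benjamini-Hochberg). YAP1 was at 194, 184 and 197 CPM in WT and at 165, 179 and 170 CPM in ΔNLS. The YAP1 groups did not overlap, but the difference was not called (-0.15 ± 0.07, adjusted p = 0.0815 by edgeR with Benjamini-Hochberg). Without WT replicate 2, the lowest of the WT libraries, YAP1 was called (edgeR adjusted p = 0.0227).

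AMOTL2 was at 219, 172 and 223 CPM in WT and at 162, 149 and 161 CPM in ΔNLS (-0.37 ± 0.09, adjusted p = 0.00285 by edgeR with Benjamini-Hochberg). The groups did not overlap, but the lowest WT library lay close to the highest ΔNLS library. AJUBA rose from 31.8, 29.8 and 30.4 CPM to 35.1, 36.8 and 35.0 CPM (0.23 ± 0.08, adjusted p = 0.0221 by edgeR with Benjamini-Hochberg). Its call was lost without WT replicate 3 (edgeR adjusted p = 0.0813), ΔNLS replicate 2 (0.0719) or ΔNLS replicate 3 (0.0553), and with no filter on low counts (0.0598). LATS2 ranged from 15.2 to 19.6 CPM in WT and from 16.5 to 17.8 CPM in ΔNLS and was not called (-0.05 ± 0.10).

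CCN1 and CCN2, which encode related proteins, moved in opposite directions in the lines. CCN1 was at 63.9, 58.5 and 63.4 CPM in WT and at 42.1, 36.6 and 36.8 CPM in ΔNLS, a log2 fold change of -0.67 (SE 0.08, adjusted p = 3.7e-06 by edgeR with Benjamini-Hochberg). CCN2 was at 7.24, 6.82 and 8.78 CPM in WT and at 12.4, 10.9 and 11.9 CPM in ΔNLS, a log2 fold change of 0.63 (SE 0.12, adjusted p = 0.000357 by edgeR with Benjamini-Hochberg). Neither pair of groups overlapped. ANKRD1, whose promoter holds the TEAD hexamer as that of CCN2 does, fell from 4.12, 3.27 and 4.29 CPM to 2.41, 2.61 and 2.85 CPM (-0.56 ± 0.16, adjusted p = 0.00983 by edgeR with Benjamini-Hochberg). AXL was at 2.06, 1.71 and 1.59 CPM in WT and at 2.07, 2.09 and 2.53 CPM in ΔNLS, all higher by a small margin and not called (0.33 ± 0.19). CRIM1 ranged from 126 to 150 CPM in WT and from 118 to 127 CPM in ΔNLS and was not called (-0.19 ± 0.07, adjusted p = 0.0542 by edgeR with Benjamini-Hochberg). CRIM1 was called without WT replicate 2 (edgeR adjusted p = 0.00219) and in DESeq2 (adjusted p = 0.0487).

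Both cSNX1.3 and the ΔNLS mutation are meant to keep EGFR out of the nucleus, and an interaction term over all 15 libraries tested whether their effects on a gene differed. The effects of 5 of the 10 genes differed, where 23.1% of all 16524 genes tested did. CCN2 had the largest difference among them, with an effect of ΔNLS minus that of cSNX1.3 of 1.13 on the log2 scale (SE 0.17, adjusted p = 3.81e-05 by edgeR with Benjamini-Hochberg). CCN2 was lower with the peptide than with EGF alone and higher in ΔNLS than in WT. The mean of CCN2 in the EGF group (13.5 CPM) was nearer ΔNLS (11.8) than WT (7.61). CCN1 was lower in ΔNLS and not called with the peptide. Its difference was -0.74 (SE 0.11, adjusted p = 4.79e-05 by edgeR with Benjamini-Hochberg). The EGF mean of CCN1 (57.0 CPM) was nearer WT (61.9) than ΔNLS (38.5). From these libraries it cannot be told which line departed from cells not transduced. TEAD1 (-0.39 ± 0.13, adjusted p = 0.0417), AMOTL2 (-0.38 ± 0.14, adjusted p = 0.0489) and AJUBA (0.38 ± 0.11, adjusted p = 0.0186) differed by less in the same edgeR test. Without single libraries these 3 calls were often lost. TEAD1 lost its call without EGF replicate 1 or 2, cSNX1.3 replicate 2 or 3, WT replicate 1 or 3 or ΔNLS replicate 1 or 3 (edgeR adjusted p from 0.0584 to 0.116). AMOTL2 lost it without any 1 of the EGF or ΔNLS libraries, cSNX1.3 replicate 2 or 3 or WT replicate 1 or 3 (0.055 to 0.128), and AJUBA without EGF replicate 1 (0.0611) or ΔNLS replicate 2 (0.0501). With at least 10 counts in every library the calls of TEAD1 (0.0564) and AMOTL2 (0.0609) were lost, and with no filter that of AJUBA (0.0622). YAP1 (-0.22 ± 0.11), ANKRD1 (-0.42 ± 0.24), AXL (-0.48 ± 0.26), LATS2 (-0.29 ± 0.14) and CRIM1 (0.01 ± 0.11) were not called. The drug and line experiments also differ in their cells and EGFR levels, which cannot be told apart from the way EGFR was kept from the nucleus.

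**Figure D3:**
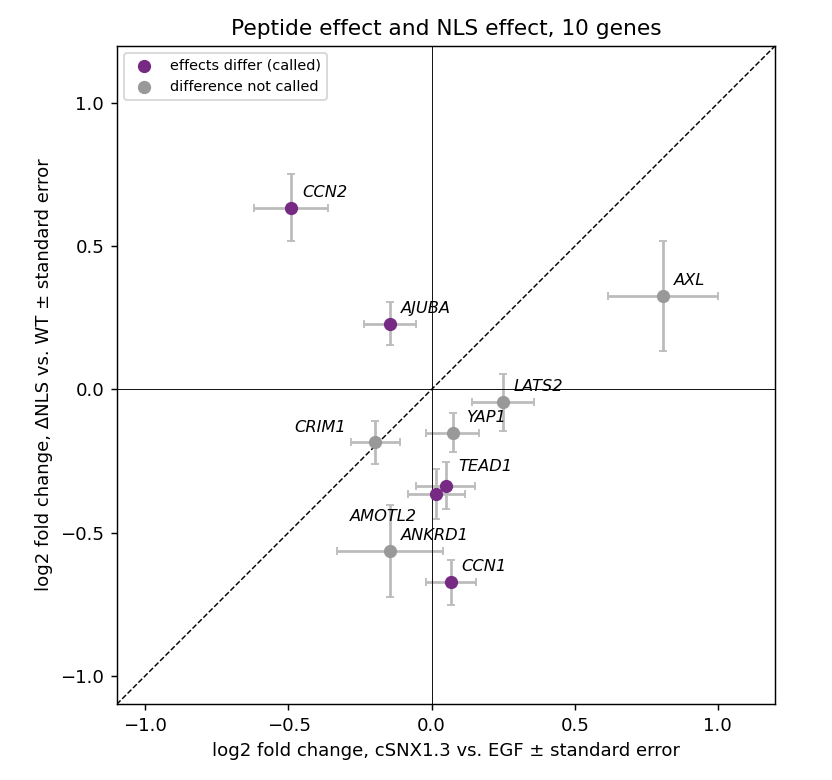
Log2 fold change of ΔNLS vs. WT (vertical axis) against that of cSNX1.3 vs. EGF (horizontal axis) for the 10 genes, with standard errors. The dashed line marks equal effects, and dark points are the 5 genes whose effects differed in the interaction test. CCN2 lies at -0.49 and 0.63, and CCN1 at 0.07 and -0.67.

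Ordered by group mean, the genes did not follow 1 pattern. CCN2 followed the order erlotinib (4.49 CPM), WT (7.61), cSNX1.3 (9.53), ΔNLS (11.8) and EGF (13.5), and no 2 neighbours in that order overlapped. The gaps were small between WT (up to 8.78) and cSNX1.3 (from 8.89) and between ΔNLS (up to 12.4) and EGF (from 12.7). These pairs come from different experiments and were not tested. AXL followed the order erlotinib (0.874 CPM), WT (1.79), ΔNLS (2.23), EGF (2.67) and cSNX1.3 (4.65), where ΔNLS and EGF overlapped. ANKRD1 was lowest with erlotinib (1.35 CPM) and next in ΔNLS (2.62), and its other 3 groups overlapped. CCN1 was lowest in ΔNLS (38.5 CPM) and with erlotinib (41.8), which overlapped, and the EGF, cSNX1.3 and WT groups stood together at 57.0 to 61.9 CPM. AMOTL2 followed the order erlotinib (105.1 CPM), ΔNLS (157), WT (205), EGF (246) and cSNX1.3 (247), of which EGF and cSNX1.3 overlapped. AJUBA was lower in both lines (30.7 and 35.7 CPM) than in the drug groups (48.6 to 58.5 CPM). YAP1 was lowest with erlotinib (126 CPM) and highest in WT (192), and the 3 groups between overlapped. TEAD1 ran from 60.7 CPM in ΔNLS to 77.2 CPM in WT, each group overlapping its neighbours.

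The rest of the pathway was read from 4 lists of 53 distinct genes, written from general knowledge and holding the 10 members, of which WWC2, FAT4 and RBMS3 had too few counts to be tested. In the list of 22 YAP-TEAD target genes, 21 were tested. With erlotinib 15 of them fell and 1 rose, and the median log2 value was -0.70. With cSNX1.3, 4 rose and 1 fell (median 0.19), and in ΔNLS vs. WT 4 rose and 11 fell (median -0.29). The median of all genes tested was 0.01, 0.00 and 0.01. The targets called were thus 76.2%, 23.8% and 71.4% of those tested, where 44.0%, 6.07% and 41.4% of all genes were called. The list holds 7 of the members, and members and list were both chosen with earlier results of these data known. The targets that are no members are thus no independent check. Leaving the members out, 10 of 14 targets fell and 1 rose with erlotinib, 3 rose with cSNX1.3, and 8 fell and 3 rose in ΔNLS vs. WT.

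F3, which encodes tissue factor, had the largest change of the list with erlotinib, from 103 ± 4.97 CPM with EGF to 10.1 ± 1.71 CPM. Its log2 fold change was -3.33 with erlotinib, 0.77 with cSNX1.3 and -1.55 in ΔNLS vs. WT, each called by edgeR (Benjamini-Hochberg adjusted p = 1.21e-11, 0.000218 and 1.38e-08). ASAP1, an Arf GTPase-activating protein, fell with erlotinib (-1.05 ± 0.16). In the lines, IGFBP3, an insulin-like growth factor binding protein, fell from 2248 ± 134 CPM in WT to 830.2 ± 47.1 CPM in ΔNLS (-1.43 ± 0.08). CCDC80 fell likewise from 113 ± 10.1 to 38.6 ± 1.59 CPM (-1.54 ± 0.08), whereas it was the 1 target that rose with erlotinib (0.73 ± 0.13). In the EGF group of the drug experiment IGFBP3 was at 531 ± 26.45 CPM and CCDC80 at 21.3 ± 4.19 CPM, both nearer ΔNLS than WT. F3 was at 122 ± 22.3 CPM in WT and 41.6 ± 1.65 CPM in ΔNLS, and its EGF level was nearer WT. Which of the 2 lines departed from cells not transduced cannot be told. The 3 other genes that rose with cSNX1.3 besides AXL were F3, NT5E (0.86 ± 0.12), which encodes the ecto-enzyme CD73, and MYOF (0.37 ± 0.11). The call of MYOF was near the threshold (adjusted p = 0.0464 by edgeR with Benjamini-Hochberg). NT5E and MYOF were named after their values were seen.

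**Figure D4:**
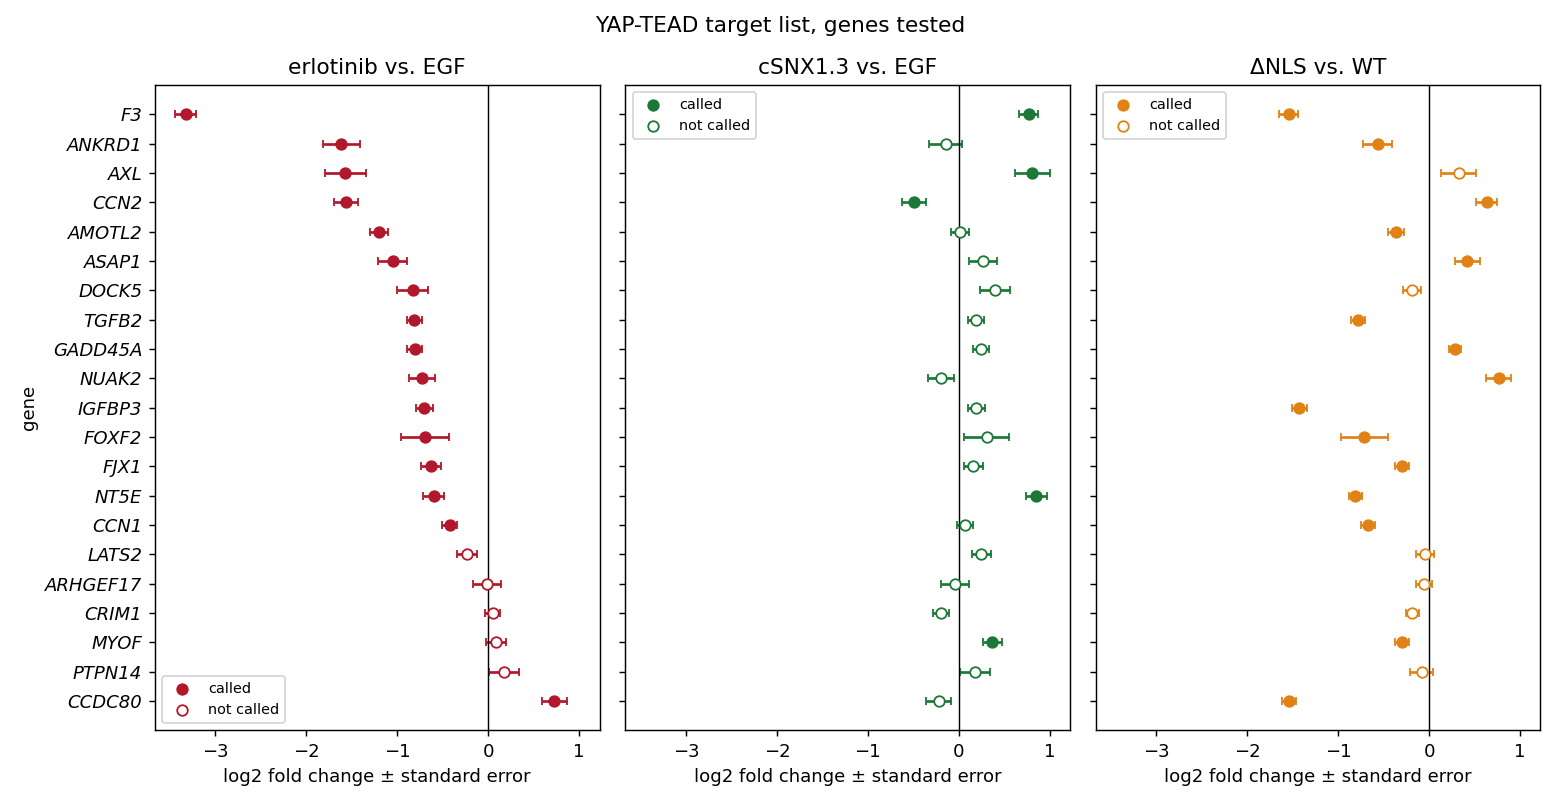
Log2 fold change with standard error of the 21 tested genes of the YAP-TEAD target list in 3 comparisons, ordered by the erlotinib effect. Filled points were called (adjusted p under 0.05) and open points were not. F3 is the lowest with erlotinib (-3.33) and CCDC80 the highest (0.73). With cSNX1.3 the median is 0.19, against 0.00 over all genes tested.

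Among the 9 effectors and TEAD partners, 2 fell and 1 rose with erlotinib, 0 were called with cSNX1.3 in edgeR (4 had an unadjusted p under 0.05, and DESeq2 called 0), and 3 rose and 3 fell in ΔNLS vs. WT. The share called was 33.3% with erlotinib, below the 44.0% of all genes, and 66.7% in the lines, where 41.4% of all genes were called. WWTR1, which encodes TAZ, the paralog of YAP1, was at 69.3 ± 4.88 CPM with EGF and was not called with erlotinib (0.08 ± 0.12), with cSNX1.3 (0.21 ± 0.12) or in the lines (0.08 ± 0.07). The TEAD paralogs moved apart in the lines. TEAD2 rose from 39.0 ± 1.42 CPM in WT to 85.9 ± 5.15 CPM in ΔNLS (1.15 ± 0.07, adjusted p = 4.78e-09 by edgeR with Benjamini-Hochberg), while TEAD1 fell. TEAD3 (0.26 ± 0.07) and TEAD4 (0.26 ± 0.07) rose less. With erlotinib TEAD4 fell (-0.40 ± 0.10), and TEAD2 (0.15 ± 0.09) and TEAD3 (-0.16 ± 0.09) were not called. VGLL3, a Vestigial-like partner of TEAD factors, fell from 8.65 ± 0.419 CPM in WT to 1.73 ± 0.401 CPM in ΔNLS (-2.32 ± 0.16). In the EGF group of the drug experiment TEAD2 was at 72.7 ± 0.925 CPM and VGLL3 at 0.527 ± 0.131 CPM, both nearer ΔNLS than WT. Which of the 2 lines departed from cells not transduced cannot be told. VGLL1, of the family of VGLL3 and named after its values were seen, rose with erlotinib (0.27 ± 0.09) and fell in ΔNLS (-0.72 ± 0.07).

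In the Hippo kinase cascade, 11 genes were tested. With erlotinib 5 fell and 1 rose, 2 rose with cSNX1.3, and 1 rose and 1 fell in ΔNLS vs. WT. These were 54.5%, 18.2% and 18.2% of the list, against 44.0%, 6.07% and 41.4% of all genes, so the share in the lines was below that of all genes. The following genes were named after their values were seen. STK3 (-0.32) and STK4 (-0.40), which encode the MST kinases, their partner SAV1 (-0.43), MAP4K4 (-0.56) and TAOK2 (-0.54) fell with erlotinib, and TAOK3 rose (0.50). SAV1 (0.36, adjusted p = 0.0245 by edgeR with Benjamini-Hochberg) and MAP4K4 (0.51, adjusted p = 0.00278) were the 2 that rose with cSNX1.3. List genes that are no members were not tested again without single libraries. In the lines the kinase gene LATS1 rose (0.62) and MOB1A, a LATS cofactor, fell (-0.44). Of 12 upstream regulators and junction adaptors tested, 5 fell and 1 rose with erlotinib, 1 fell and 1 rose with cSNX1.3, and 4 fell and 1 rose in ΔNLS. The shares called, 50% with erlotinib and 41.7% in the lines, were near those of all genes (44.0% and 41.4%), and that with cSNX1.3 was 16.7% against 6.07%. NF2, which encodes merlin, a scaffold that promotes LATS activity, went from 68.3 ± 7.33 CPM in the EGF group to 30.6 ± 2.31 CPM under erlotinib, a fall of 1.13 on the log2 scale (SE 0.11, adjusted p = 6.49e-07 by edgeR with Benjamini-Hochberg). The angiomotin family, again named after its values were seen, did not move as 1 group. AMOT rose with erlotinib (0.45) and fell with cSNX1.3 (-0.72). AMOTL1 rose with cSNX1.3 (0.42, adjusted p = 0.0234 by edgeR with Benjamini-Hochberg) and fell in ΔNLS (-0.60). AMOTL2 fell with erlotinib and in ΔNLS.

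Genes whose levels ran most like those of 4 targets were named by Pearson's r of log2 CPM over the 15 libraries, among 10808 genes whose mean reached 5 CPM. The libraries share groups and scaling, and the values are a description. For CCN2 they were TPM1, which encodes a tropomyosin (r = 0.947), the pseudogene HMGB1P6 (0.941), whose reads may be shared with its parent gene, and CNOT9 (0.930). For CCN1 they were FGFBP1 (0.972), HTR1D (0.951) and CCNYL1 (0.950). For ANKRD1 they were the unnamed gene ENSG00000260877 (0.968), the noncoding RNA LINC02015 (0.963) and CCND1, which encodes cyclin D1 (0.958). For AXL they were DIAPH1, a formin (0.974), SLCO4A1 (0.972) and SNRPA1 (0.969). The 4 targets shared none of these 12 genes.

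On the genome, in GENCODE 44 coordinates of GRCh38, CCN2 (ENSG00000118523) lies at chr6:131948176-131951372 and CCN1 (ENSG00000142871) at chr1:85580761-85584589. ANKRD1 lies at chr10:90912096-90921087, AXL at chr19:41219223-41261766 and AMOTL2 at chr3:134355347-134375479. Because strand was not used in counting, reads of overlapping genes on opposite strands cannot be told apart. Of the exonic bases of CCN2, 11.9% overlap LINC01013 on the other strand, which had 0 to 2 counts per library against at least 107 for CCN2. For YAP1 the overlap was 10.1%, with 14 to 77 counts per library on ENSG00000277459 against at least 3352 on YAP1.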

How the data were processed

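Poly(A) RNA was measured in 15 libraries of MDA-MB-468, 3 per group. According to the methods, the authors trimmed reads with TrimGalore, aligned them to GRCh38 with STAR and counted read pairs per gene with featureCounts without regard to strand. The deposited values are these raw counts, not normalized, for 61552 Ensembl IDs, of which 61399 were matched to GENCODE 44. The annotation release is not given in the sources used here. All libraries were kept, at 22915676 to 35900649 counts.

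Counts were tested with edgeR 4.0.16 in R 4.3.3 across all genes left by filterByExpr, using TMM scaling, a robust quasi-likelihood fit and Benjamini-Hochberg adjustment with a threshold of 0.05. The 3 drug contrasts came from 1 fit of 9 libraries, ΔNLS vs. WT from a fit of 6, and the interaction from a fit of all 15. Levels are CPM on the TMM scale of all 15 libraries, and ± after a log2 fold change is the standard error. It was derived as the absolute log2 fold change divided by the square root of the quasi-likelihood F statistic. Promoter windows came from RefSeq (GRCh38.p14). Tested on simulated data, the test recovered 60 of 67 genes changed 2-fold for erlotinib vs. EGF over 15193 genes, 64 of 67 for ΔNLS vs. WT over 15430 and 59 of 67 for the interaction over 15670. Of 67 genes changed 1.5-fold it recovered 48, 61 and 31, and 14 of 188, 12 of 203 and 15 of 169 calls were of unchanged genes. Each simulation also changed 66 genes 4-fold and left all others unchanged. The share changed was thus far below the share called in the real libraries, where these rates may not hold. For cSNX1.3 vs. EGF no data were simulated.

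The members and lists were chosen with earlier results of these data known. Named are the members, the paralogs WWTR1 and TEAD2 to TEAD4, list genes called with an absolute log2 fold change over 1 and a mean of at least 1 CPM, and for 4 targets the 3 genes most like them (prior count 2). Alternatives were DESeq2 1.42.0 as the test, its size factors, no filter, at least 10 counts in every library, other libraries in the fit, the omission of each replicate, a replicate block and a threshold of 0.01. Of the listed markers of other cell types, 1 is not reported here, and protein and imaging data were not analysed.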

Additional observations from a re-analysis of the deposited data

Results flagged for a closer look

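In the interaction test, the change in ΔNLS vs. WT differed from that of cSNX1.3 vs. EGF for 5 of the 10 genes. Of all 16524 genes tested, 23.1% differed. The difference, the log2 fold change of ΔNLS vs. WT minus that of cSNX1.3 vs. EGF, was 1.13 for CCN2, -0.74 for CCN1, -0.39 for TEAD1, -0.38 for AMOTL2 and 0.38 for AJUBA (edgeR, Benjamini-Hochberg adjusted p from 3.81e-05 for CCN2 to 0.0489 for AMOTL2). The changes of CCN2 had opposite signs, each with groups that did not overlap (-0.49 with cSNX1.3 and 0.63 with ΔNLS). For cSNX1.3 vs. EGF the call of CCN2 was lost under 5 of 14 alternatives (edgeR adjusted p up to 0.18). CCN2 in the EGF group was nearer ΔNLS than WT, and which line departed from cells not transduced cannot be told. In the interaction test, CCN2 and CCN1 were called under all 18 alternatives. AJUBA was called under 14 of them, TEAD1 under 7 and AMOTL2 under 5. With 3 libraries per group, no library was tested for standing apart from its group.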

How the results depend on the processing

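The count of called members was within 1.5 times its main value under every alternative run for erlotinib vs. EGF (6 to 7), ΔNLS vs. WT (5 to 8) and cSNX1.3 vs. erlotinib (7 to 9). For cSNX1.3 vs. EGF it was 0 at an adjusted p under 0.01 in edgeR (0 in DESeq2 as well, 4 in edgeR at an unadjusted p under 0.05) and 0 to 2 when a replicate was left out, and the genes called in all, 956, became 470 at an adjusted p under 0.01, 1444 in a fit of all 15 libraries and 526 to 892 without a replicate. For the interaction the 5 members became 3 with at least 10 counts in every library, 3 with the replicate block, 2 at an adjusted p under 0.01 and 2 to 5 without a replicate. Of 730 alternatives for single members, 668 left direction and call as they were, 49 lost the call, 4 gained it and 9 turned the sign. Every turn was of a value near 0 that was not called. Without 1 replicate, CRIM1 ran from -0.014 to 0.082 for erlotinib, TEAD1 from -0.025 to 0.13 and AMOTL2 from -0.052 to 0.077 for cSNX1.3, LATS2 from -0.139 to 0.029 for ΔNLS and CRIM1 from -0.057 to 0.082 for the interaction. The cause was not tested. Replicate numbers did not pair the samples throughout. The correlation of deviations of same-numbered libraries ran from -0.408 to 0.437, and that of other-numbered libraries reached 0.623. Replicate 3 matched its own number best in each pair of drug groups (0.437, 0.169 and 0.183). Replicate 1 did so between cSNX1.3 and erlotinib (0.181), and the others did not. With the replicate block members called were 6, 2, 9 and 6 for erlotinib, cSNX1.3, the direct contrast and ΔNLS. The interaction was run on all 15 libraries alone. Depth limits AXL and ANKRD1 most, and DESeq2 gave an adjusted p for every member.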
